A study of Mus musculus with 8 samples.

Results

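The data described here are the RNA levels of 9 mouse keratin genes in sorted skin stem cells. Krt1, Krt2, Krt10 and Krt77 are suprabasal keratins, and Krt6a, Krt6b and Krt16 are stress keratins. Krt79, of the upper hair follicle, and Krt17, found along the outer root sheath, are grouped here by name as infundibular keratins. The 9 genes, of 24755 genes with a row for these cells, were selected by symbol with their WT and Msx2-KO values in these same libraries already known. Those values chose them, so their levels and differences are a description and support nothing further.

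Bulk RNA-seq was made from dorsal skin of mice in telogen, the resting phase of the hair cycle. Hair follicle stem cells (HFSCs) had been sorted as CD34+CD49f+Sca-1- cells and epidermal stem cells (EpdSCs) as CD34-CD49f+Sca-1+ cells. The sources do not limit the EpdSC sort to the epidermis between follicles. Each cell type had 2 libraries of WT mice and 2 of Msx2-KO mice, which is 8 libraries in all. The comparison of the genotypes asks what loss of Msx2, a homeobox gene of skin and hair, does to gene expression in each stem cell. WT mice were C57BL/6J mice matched for hair cycle stage. Msx2-KO mice carried the knockout in the whole body, a neo cassette inserted upstream of exon 2 on both alleles. WT HFSCs came from mice of 2 months and Msx2-KO HFSCs from mice of 6 months, so that age and genotype cannot be told apart in HFSCs. Both EpdSC groups came from mice of 6 months. Nothing in the labels says which libraries share an animal, so the spread between 2 libraries may be technical in part. By the labels, library names of WT and Msx2-KO belong to different stretches of numbers within each cell type, while those of Msx2-KO HFSCs and WT EpdSCs follow each other. Names of the WT HFSC libraries also begin with YC, and those of all other libraries with Ch. Whatever these names stand for cannot be told apart from genotype.

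HFSC values are CPM, estimated counts brought to a common library size with TMM factors, and EpdSC values are the normalized counts as deposited. The tables were scaled separately, so no level was tested between HFSCs and EpdSCs. HFSC libraries held 4324511 and 3132974 estimated counts in WT against 11016659 and 6895606 in Msx2-KO. Mitochondrially encoded and ribosomal RNA genes took 11.2% and 41.4% of the WT HFSC counts, against 57.0% and 62.5% in the libraries labelled Msx2-KO. Fewer genes reached 1 count there, 11409 and 14251 against 22447 and 19595 in WT. In EpdSCs the same RNA genes took 26.9% and 19.1% in WT against 5.16% and 9.61% in Msx2-KO. EpdSC libraries stood for about 15215646 and 15487304 estimated counts in WT against 19398619 and 21092705 in Msx2-KO. There the deposited table gave 12720 and 15165 genes at 1 count or more in Msx2-KO against 15865 and 15935 in WT. With the RNA genes left out, the HFSC log2 difference towards Msx2-KO was 5.33 for Krt1, 5.20 for Krt10 and 5.61 for Krt79, against 5.36, 5.23 and 5.65 with them. In EpdSCs it went from -1.67 to -2.21 for Krt1 and from -2.55 to -3.08 for Krt10 when library totals were also made equal. The part of depth and of the number of genes detected in the keratin values was not tested.

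Msx2 itself did not separate the genotypes. HFSC levels were 7.08 and 2.26 CPM in WT and 4.36 and 3.82 CPM in Msx2-KO, from 53, 7, 40 and 18 counts. EpdSC levels were 58.5 and 85.4 normalized counts in WT against 150 and 22.2 in Msx2-KO. The groups overlapped in both cell types. The study reported no Msx2 signal in skin of Msx2-KO mice by RNAscope, a staining of RNA in tissue sections, and these counts do not show that absence. The cassette lies inside the gene and counts per gene do not show which part was read. The knockout therefore cannot be seen in these values, and the libraries are called by their labels below. Markers of the sort were present. Cd34, the surface marker of the HFSC sort, was at 491 and 436 CPM in WT and 177 and 144 CPM in HFSCs labelled Msx2-KO. In EpdSCs, Ly6a, which encodes Sca-1, was present in every library at 472, 544, 826 and 3493 normalized counts, in the order WT replicates 1 and 2 and Msx2-KO replicates 1 and 2.

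Keratins are the intermediate filament proteins of epithelia, and each filament pairs a type I with a type II keratin. Basal keratinocytes and follicle stem cells build filaments of Krt5 with Krt14, and of Krt15 in the bulge. On leaving the basal layer, keratinocytes switch to Krt1 with Krt10, and wounded or stressed epidermis makes Krt6a, Krt6b and Krt16 instead. Krt6a and Krt6b also mark the inner bulge and companion layer of the resting follicle, Krt17 is found along the outer root sheath, and Krt79 marks the infundibulum and its junction with the sebaceous duct.

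Of the suprabasal keratins, Krt1, Krt10 and Krt77 had higher levels in both HFSC libraries labelled Msx2-KO than in WT HFSCs, and Krt2 was nearly undetected in all 4. Krt10, the type I partner of the suprabasal pair, was at 34.8 and 18.7 CPM in the WT libraries and at 404 and 1625 CPM in the Msx2-KO libraries. Its type II partner Krt1 was at 20.4 and 8.08 CPM in WT and 245 and 949 CPM in Msx2-KO. Both WT libraries were low, both Msx2-KO libraries high, and Msx2-KO replicate 2 was about as far above replicate 1 for the one gene as for the other. Fitted log2 differences were 5.23 (SE 0.93) for Krt10 and 5.36 (SE 0.98) for Krt1. Krt77, a type II keratin of the epidermis and sweat ducts, was at 24.3 and 13.6 CPM in WT and 130 and 884 CPM in Msx2-KO, a log2 difference of 4.72 (SE 1.13). The sizes depended on Msx2-KO replicate 2, without which they were 3.89 for Krt10, 4.05 for Krt1 and 2.74 for Krt77. Without Msx2-KO replicate 1 they were 5.89, 5.99 and 5.50, without WT replicate 1 5.75, 6.19 and 5.21, and without WT replicate 2 4.78, 4.79 and 4.31. Krt2, a keratin of late suprabasal cells that is sparse in back skin, had 2 and 3 counts in WT and 0 in both Msx2-KO libraries, too few for a fold change, and it was the 1 member that missed the filter on low counts.

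In EpdSCs the suprabasal pair went the other way. Krt10 was at 158740 and 107937 normalized counts in WT against 16336 and 30738 in Msx2-KO, and Krt1 at 99401 and 76032 against 19059 and 39004. WT libraries were above Msx2-KO libraries for both genes, with log2 differences of -2.55 (SE 0.60) for Krt10 and -1.67 (SE 0.61) for Krt1. Over the left-out libraries these ran from -3.00 to -2.09 for Krt10 and from -2.19 to -1.16 for Krt1, lowest without Msx2-KO replicate 2 and highest without Msx2-KO replicate 1. Krt77 did not follow the pair. Its values of 90689 and 48335 in WT lay between 112767 and 20585 in Msx2-KO, so the spread between the Msx2-KO libraries was wider than any difference of the groups (log2 difference -0.46, SE 1.05). Krt2 was at 0 and 11.4 normalized counts in WT against 302 and 30.3 in Msx2-KO. The 2 Msx2-KO libraries were above both WT libraries, but 1 of them was about an order of magnitude higher than the other, and the log2 difference of 4.79 had an SE of 1.83. It was 2.98 without WT replicate 1, 3.15 without Msx2-KO replicate 1 and 6.43 without Msx2-KO replicate 2. Without WT replicate 2 it was 6.61, where the WT library left was at 0. The size of the Krt2 difference depended on the value added before taking logs, here 1. It was 6.48 with 0.1 and 2.94 with 10.

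The 3 keratins grouped here as stress keratins were at the low end in HFSCs labelled Msx2-KO. Krt17, grouped by name with Krt79, was higher there. Krt6a was at 126 and 330 CPM in WT and 76.5 and 39.7 CPM in Msx2-KO, a log2 difference of -1.97 (SE 0.63). It was -2.53 without WT replicate 1, -1.21 without WT replicate 2 and -2.55 without Msx2-KO replicate 1. Krt6b had 115 and 264 counts in WT, or 15.4 and 85.3 CPM, and 0 counts in both Msx2-KO libraries. Set against a floor of 3 counts per library, that is at least 104.5-fold lower by the WT mean, but at least 31.98-fold by WT replicate 1 alone and 177-fold by WT replicate 2 alone. Krt16, the type I partner of both, had 16.2 and 9.40 counts in WT and 0 and 2.00 counts in Msx2-KO. Over the pooled 26 and 2 counts WT was 17.1-fold higher, with an exact 95% counting interval from 4.27 to 148 that leaves out the spread between libraries. The fitted log2 difference, which includes it, was -3.58 (SE 1.73, edgeR adjusted p = 0.421). It was -2.50 without Msx2-KO replicate 1 and -7.04 without Msx2-KO replicate 2, where the Msx2-KO library left had 0 counts and the size depends on the prior count. Groups did not overlap for any of the 3 stress keratins. Over all HFSC genes tested, 33.5% had both Msx2-KO libraries below both WT libraries and 17.5% above. Krt16 was barely detected in HFSCs of either genotype, and Krt6b and Krt16 passed the filter on low counts through WT alone.

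No such separation was seen in EpdSCs, where the order of these genes also differed. Krt16 was the highest of the 3 per kb and ran at 640 and 153 normalized counts in WT against 393 and 153 in Msx2-KO. Krt6a was at 171 and 51.8 in WT against 388 and 68.6 in Msx2-KO. Krt6b stayed near its detection limit, with 25.1 and 4.15 in WT against 0 and 4.85 in Msx2-KO, where 0 allows up to 3.82 normalized counts in that library. Replicate libraries of a genotype differed by more than the genotypes did for all 3 stress keratins, and the groups overlapped.

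Infundibular keratins were higher in HFSCs labelled Msx2-KO and had the closest Msx2-KO replicates of the members detected there. Krt79 was at 16.02 and 5.50 CPM in WT and 584 and 531 CPM in Msx2-KO, a log2 difference of 5.65 (SE 0.64) that was 6.64 without WT replicate 1 and 5.03 without WT replicate 2. Krt17 was at 119 and 236 CPM in WT and 631 and 597 CPM in Msx2-KO, a log2 difference of 1.79 (SE 0.42). Neither gene was separated in that direction in EpdSCs. Krt17 was at 2990 and 2487 normalized counts in WT but at 77.7 and 463 in Msx2-KO, a log2 difference of -3.84 (SE 1.04). It was -2.55 without Msx2-KO replicate 1 and -5.12 without Msx2-KO replicate 2. Krt79, at 1954 and 2646 in WT, lay between 4024 and 747 in Msx2-KO. Krt77 and Krt79 shared this pattern, with Msx2-KO replicate 1 the highest and Msx2-KO replicate 2 the lowest of the 4 EpdSC libraries.

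**Figure D1:**
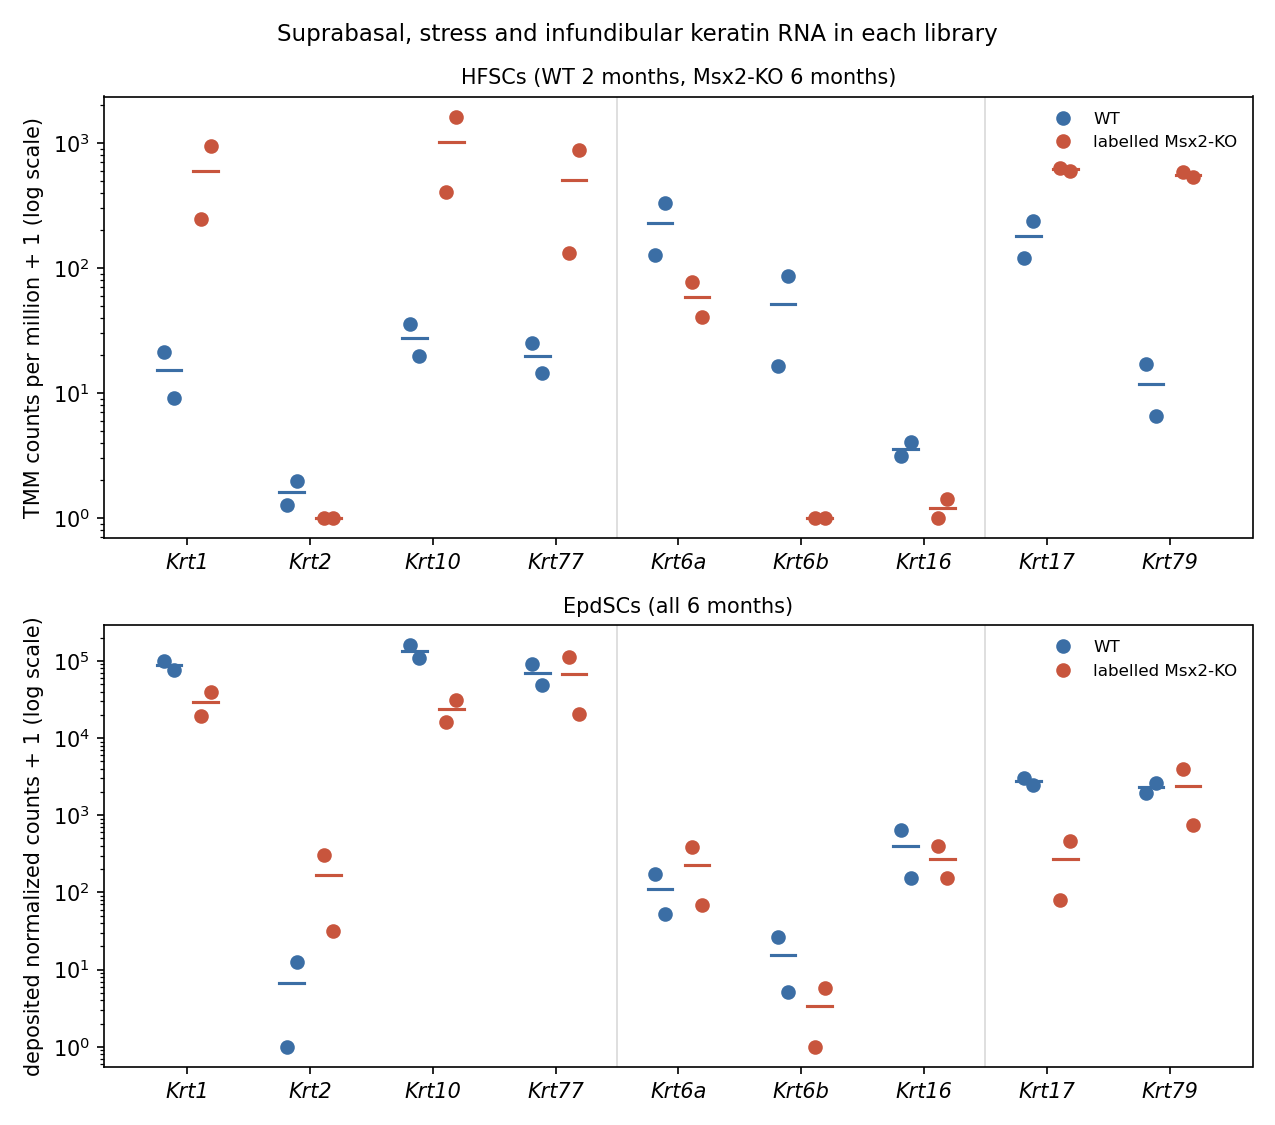
RNA level of each keratin in every library, HFSCs above and EpdSCs below; points are libraries, short lines are group means, blue is WT, red is labelled Msx2-KO, and both vertical axes are logarithmic after adding 1. Krt79 is at 16.02 and 5.50 CPM in WT HFSCs and at 584 and 531 CPM in HFSCs labelled Msx2-KO, while Krt1, Krt10 and Krt17 are higher in Msx2-KO among HFSCs and lower among EpdSCs.

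Of the 8 keratins that passed the HFSC filter, 5 had both Msx2-KO libraries above both WT libraries and 3 had them below. Over all 14422 HFSC genes tested, 17.5% were above in this way and 33.5% below. Krt6b and Krt16 passed the filter through their WT libraries alone. edgeR's quasi-likelihood test called 0 genes at an adjusted p under 0.05 and a fold change over 2, which is 0% of all genes, while 2614 genes had an unadjusted p under 0.05. The lowest adjusted p of any gene was 0.143, and the 8 keratins ranged from 0.143 to 0.421. DESeq2 on the same counts called 5 of the keratins higher and 2 lower, beside 2.38% and 2.58% of 13583 genes. limma-trend called 3 higher and 0 lower, beside 1.10% and 8.66% of all genes. Since these contrasts chose the members, nothing is read from their counts. The edgeR result depended on single libraries. Without WT replicate 1 it called 4 keratins higher and 2 lower, beside 0.607% and 0.432% of all genes, and without WT replicate 2 it called 5 and 0, beside 0.585% and 0.211%. Without Msx2-KO replicate 1 it called 5 and 2, beside 15.1% and 21.5% of all genes, and without Msx2-KO replicate 2 again 5 and 2, beside 17.3% and 41.8%. When libraries were scaled by their totals, without TMM, the median log2 difference of all HFSC genes moved from -0.14 to -1.002, and each of the 8 keratins kept its direction. Krt1 then had a log2 difference of 4.28, Krt10 of 4.18, Krt77 of 3.66, Krt79 of 4.65 and Krt17 of 1.08. Krt6a moved the other way in size, from -1.97 to -2.59, as did Krt16, from -3.58 to -4.42. With limma-trend Krt16 was at -2.16.

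All 9 keratins were tested in EpdSCs, and limma called 0 of them where it called 9.35% of 16231 genes, 255 higher and 1263 lower in Msx2-KO, and 5726 genes had an unadjusted p under 0.05. Both Msx2-KO libraries lay above both WT libraries for 1 of the 9, Krt2, and below for 3, namely Krt1, Krt10 and Krt17. The shares over all EpdSC genes were 27.8% above and 44.5% below. Adjusted p values of the 9 ranged from 0.0807 for Krt10 to 0.812 for Krt16. Without Msx2-KO replicate 1 the test called Krt17 lower, beside 24.7% of all genes, without Msx2-KO replicate 2 it called Krt1, Krt10 and Krt17 lower, beside 40.9%, and without either WT replicate it called 0 genes of the whole table. Krt77 and Krt79 had log2 differences of 0.77 and 0.82 towards Msx2-KO once Msx2-KO replicate 2 was left out, so their direction rested on that library.

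Ordered by level per kb of transcript, the 9 genes ranked differently in each group. In WT HFSCs, Krt17 at 77.0 and 152 CPM per kb and Krt6a at 55.2 and 145 were highest and overlapped each other. Krt6b came next at 6.89 and 38.2, a range that takes in Krt10. Krt10, Krt77, Krt1 and Krt79 had group means between 5.13 and 12.8 CPM per kb, and the last 3 of them could not be ordered beyond their spread. In HFSCs labelled Msx2-KO, Krt10 had the highest mean, at 193 and 776 CPM per kb, and overlapped Krt17 at 407 and 385. In Msx2-KO replicate 1 Krt10 was below both Krt17 and Krt79. Krt79, Krt1 and Krt77 came next by their means with overlapping ranges. Krt1, at 99.7 and 387, also overlapped Krt17, and Krt6a at 33.6 and 17.4 was below them all. WT EpdSCs had a strict order without overlap down to Krt6b: Krt10, Krt1, Krt77, Krt17, Krt79, Krt16, Krt6a and Krt6b. Krt10 stood at 75807 and 51546 normalized counts per kb in those libraries. In EpdSCs labelled Msx2-KO, Krt77, Krt1 and Krt10 all overlapped, and Krt79 followed at 1919 and 356.

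Ratios within a library do not depend on scaling and can be set side by side for the cell types. The ratio of Krt1 and Krt10 to the basal pair Krt5 and Krt14 was 0.0178 and 0.00833 in WT HFSCs and 0.271 and 1.15 in HFSCs labelled Msx2-KO. It was 1.52 and 0.922 in WT EpdSCs and 0.0666 and 0.171 in EpdSCs labelled Msx2-KO. The lower of the HFSC values labelled Msx2-KO was thus above both EpdSC values with that label, and the higher one was within the WT EpdSC range. Krt17 relative to the basal pair stood at 0.0385 and 0.0734 in WT HFSCs, 0.263 and 0.266 in HFSCs labelled Msx2-KO, 0.0177 and 0.0125 in WT EpdSCs, and 0.000146 and 0.00114 in EpdSCs labelled Msx2-KO. For Krt79 the corresponding values were 0.00516 and 0.00171, then 0.244 and 0.237, then 0.0115 and 0.0133, and last 0.00757 and 0.00184. Both ratios were therefore higher in HFSCs labelled Msx2-KO than in any of the other 6 libraries. Relative to the basal pair Krt79 was below WT in both EpdSC libraries labelled Msx2-KO, although its own level overlapped, and Krt14 was higher in those libraries than in WT.

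Partner keratins did not keep one ratio. Krt1 over Krt10 was 0.586 and 0.432 in WT HFSCs and 0.607 and 0.584 in HFSCs labelled Msx2-KO, so the genotypes overlapped while both genes differed strongly in level. In EpdSCs the ratio was 0.626 and 0.704 in WT against 1.17 and 1.27 in Msx2-KO, where Krt10 was lower by more than Krt1. The type II members summed over the type I members gave 1.18 and 1.15 in WT EpdSCs and 8.12 and 1.93 in EpdSCs labelled Msx2-KO. Krt77 made most of the 8.12. In HFSCs this sum ratio was 1.29 and 1.72 in WT against 1.00 and 1.08 in Msx2-KO. Per kb, Krt6a and Krt6b together over Krt16 gave 44.9 and 94.4 in WT HFSCs, but were below Krt16 in all 4 EpdSC libraries, at 0.211 and 0.252 in WT against 0.678 and 0.330 in Msx2-KO. The stress keratins relative to the basal pair were at 0.0461 and 0.130 in WT HFSCs and 0.0319 and 0.0179 in HFSCs labelled Msx2-KO, and no more than 0.00494 in any EpdSC library. Krt6a over Krt6b was 8.16 and 3.87 in WT HFSCs and at least 234 and 62.4 in HFSCs labelled Msx2-KO.

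As a share of all keratin counts in a library, the 9 genes took 4.28% and 8.18% in WT HFSCs and 30.2% and 46.7% in HFSCs labelled Msx2-KO. In EpdSCs they took 57.4% and 43.6% in WT against 16.7% and 13.5% in Msx2-KO. Counting error alone gave 95% Wilson intervals no wider than 0.905 percentage points for these shares. The suprabasal keratins took 0.953% and 0.482% in WT HFSCs and 11.4% and 34.9% in HFSCs labelled Msx2-KO, and the infundibular keratins 1.62% and 2.82% against 17.8% and 11.4%. Stress keratins took 1.71% and 4.88% in WT HFSCs and 1.12% and 0.405% in Msx2-KO. Krt5, Krt14 and Krt15 together made up 93.1% and 89.4% of keratin counts in WT HFSCs and 67.4% and 50.5% in Msx2-KO, against 40.3% and 54.2% in WT EpdSCs and 82.7% and 86.2% in EpdSCs labelled Msx2-KO.

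**Figure D2:**
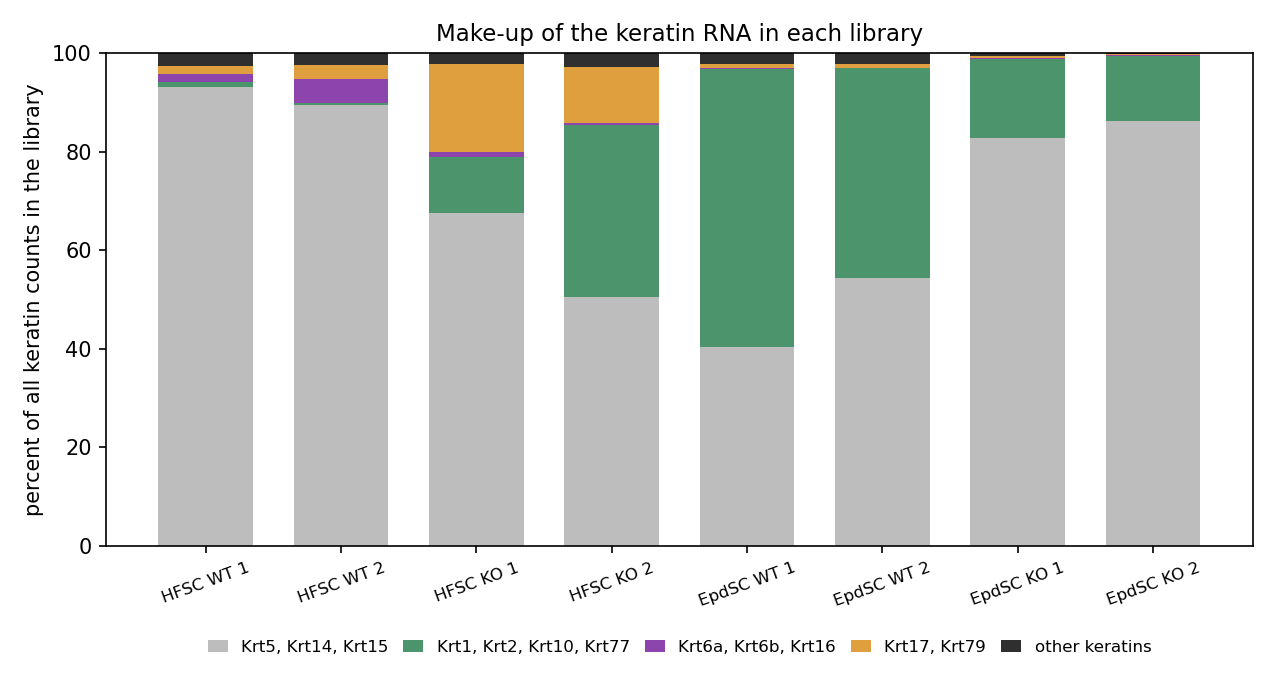
Stacked bars give the percent of all keratin counts in each of the 8 libraries that fell on the basal, suprabasal, stress, infundibular and other keratins. The 9 genes took 4.28% and 8.18% in WT HFSCs and 30.2% and 46.7% in HFSCs labelled Msx2-KO, against 57.4% and 43.6% in WT EpdSCs and 16.7% and 13.5% in EpdSCs labelled Msx2-KO.

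The highest keratins outside the 9 give the frame for these shares. In HFSCs, Krt15 was at 4701 and 4447 CPM in WT and 2218 and 2767 CPM in Msx2-KO, and Krt5 at 2467 and 2548 against 1537 and 1502. Krt14 was at 639 and 668 CPM in WT and 859 and 737 CPM in Msx2-KO. Krt80 was at 175 and 161 CPM in WT and 62.4 and 122 CPM in Msx2-KO, and Krt24 at 14.6 and 19.7 against 66.1 and 92.1. None of these 5 was called in HFSCs by edgeR, which called 0% of all HFSC genes. In EpdSCs, Krt14 was at 71869 and 84155 normalized counts in WT against 392157 and 275191 in Msx2-KO, and Krt15 at 79951 and 96241 against 230109 and 177798. Krt5 differed less, at 97473 and 115290 in WT against 139417 and 131906 in Msx2-KO, and Krt80 was at 10174 and 9029 against 5677 and 1839. Of the 5 highest limma called Krt78 alone, beside 1.57% of all EpdSC genes called higher and 7.78% called lower. Krt78, a type II keratin of suprabasal epithelial cells, fell from 3591 and 2429 normalized counts in WT to 49.7 and 76.8 in Msx2-KO (adjusted p = 0.0266, log2 difference -5.56, SE 0.55). Without either WT library this call was lost, as every call in the table was.

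Other suprabasal genes, a list of 25 proteins and regulators of keratinocyte differentiation, were set beside Krt1 and Krt10. In HFSCs 21 of them were tested and edgeR called 0 higher and 0 lower. Their median log2 difference was 2.42, against -0.14 over all genes, and 13 had both Msx2-KO libraries above WT and 1 below, where all HFSC genes gave 17.5% and 33.5%. Flg, Sfn and Krtdap are on the list and were picked by the study for higher levels in these HFSC libraries, so the count is not independent evidence of a direction. The 4 most abundant did not share one pattern. The calmodulin-like Calml3 was at 245 and 210 CPM in WT and 134 and 153 CPM in Msx2-KO, Sfn, an epidermal 14-3-3 protein, at 87.0 and 112 against 137 and 249, and Sbsn and Dmkn overlapped. Desmoglein Dsg1a, a desmosomal cadherin, was at 21.3 and 17.2 CPM in WT and 61.5 and 305 CPM in Msx2-KO. Loricrin (Lor), a late cornified envelope protein, had values above 0 in a single HFSC library, Msx2-KO replicate 2 at 21.9 CPM, and 7 of the 23 measured genes were at 0 in Msx2-KO replicate 1. Summed, the list stood at 595 and 641 CPM in WT and 677 and 1494 CPM in Msx2-KO.

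In EpdSCs 24 genes of the suprabasal list were tested, with 0 called higher and 3 lower, beside 1.57% and 7.78% of all genes, and their median log2 difference was -2.23 against -0.64 over all genes. The 3 were Ivl, Sbsn and Dsc1. Involucrin (Ivl), a cornified envelope precursor, fell from 433 and 232 normalized counts in WT to 2.55 and 9.44 in Msx2-KO (limma adjusted p = 0.0368, log2 difference -5.71). Sbsn, or suprabasin, fell from 8563 and 6441 to 747 and 648 (adjusted p = 0.0388, log2 difference -3.41), and the desmosomal cadherin Dsc1 from 695 and 414 to 11.5 and 14.2 (adjusted p = 0.0268, log2 difference -5.29). All 3 calls were lost without either WT library. Most abundant were Dsg1a, Sfn, Dmkn and Calm4, and the summed list was at 85231 and 64442 in WT against 85954 and 28673 in Msx2-KO. Dsg1a had 27775 and 23105 normalized counts in WT against 64734 and 9860 in Msx2-KO and overlapped, like Krt77. Sfn was at 18143 and 14052 in WT against 73.9 and 2717 in Msx2-KO. Dmkn and the calcium-binding Calm4 overlapped.

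Wound and stress genes were a list of 18 that includes calprotectin, small proline-rich proteins and growth factors. In HFSCs only 8 of the 18 had values. The calprotectin genes S100a8 and S100a9, and Sprr1b, Sprr2d and Il1b, were among those without, so nothing can be said of them. Only 5 genes were tested there, with 0 called in either direction by edgeR. Of these, 0 had both Msx2-KO libraries above WT and 4 below, where all HFSC genes gave 17.5% and 33.5%. The filter on low counts decided part of this, since S100a7a and Hbegf, at 0 in both Msx2-KO libraries, passed it through WT alone, while Sprr1a was not tested. Tenascin Tnc, a matrix glycoprotein, was at 85.6 and 126 CPM in WT and 3.59 and 73.4 CPM in Msx2-KO. The stress regulator Nfe2l2 overlapped at 24.7 and 33.6 CPM in WT and 32.6 and 30.8 CPM in Msx2-KO. The small proline-rich Sprr1a stood at 39.5 CPM in Msx2-KO replicate 1 but at 0.667 and 0 in WT and 0 in Msx2-KO replicate 2. Itga5, a fibronectin receptor subunit, was at 10.8 and 14.2 CPM in WT and 5.23 and 0 CPM in Msx2-KO. Summed, the list gave 127 and 185 CPM in WT and 81.0 and 109 CPM in Msx2-KO. In EpdSCs 10 genes had values and were tested, with 0 called, beside 9.35% of all genes, and a median of 0.12, against -0.64 over all genes. S100a8, S100a9, Sprr2d and Il1b again had no values. Nfe2l2 led at 883 and 889 normalized counts in WT against 1495 and 2108 in Msx2-KO, followed by Hbegf, Sprr1a and Itga5. Sprr1a was at 159 and 58.8 in WT against 8.91 and 11.5 in Msx2-KO, and Hbegf, an EGF receptor ligand, at 42.2 and 69.2 against 101 and 368. Itga5 was at 62.8 and 91.1 in WT against 0 and 16.2 in Msx2-KO, and the summed list at 1269 and 1245 against 1785 and 2625.

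Infundibular genes other than Krt17 and Krt79 were a list of 8, of which 7 were tested in HFSCs. There edgeR called 0 in either direction, 4 had Msx2-KO above WT and 1 below, beside 17.5% and 33.5% of all HFSC genes, and the median log2 difference was 1.08. Cst6, a protease inhibitor of the upper follicle, was at 4.54 and 0.970 CPM in WT and 164 and 31.6 CPM in Msx2-KO. It passed the filter on low counts only with its Msx2-KO libraries. The beta-defensin Defb6 was at 4.67 and 2.26 CPM in WT and 63.6 and 37.4 CPM in Msx2-KO. Lrig1, which marks stem cells of the junctional zone and was the most abundant, was at 69.0 and 60.5 CPM in WT and 82.2 and 192 CPM in Msx2-KO. Sostdc1, also among the 4 highest, overlapped. The summed list was at 148 and 122 CPM in WT and 361 and 332 CPM in Msx2-KO. In EpdSCs all 8 were tested with 0 called, beside 9.35% of all genes, and 4 were above and 4 below WT, beside 27.8% and 44.5%. Their median log2 difference was -0.26, against -0.64 over all genes. Sostdc1, a secreted BMP and Wnt antagonist, was at 1206 and 1417 normalized counts in WT against 17083 and 3157 in Msx2-KO. Lrig1 was at 1876 and 2319 against 327 and 931, Cst6 at 581 and 283 against 44.6 and 89.6, and Plet1 at 265 and 358 against 2449 and 675. The summed list was at 4292 and 4975 in WT against 20862 and 5361 in Msx2-KO.

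Krt6a and Krt6b share their follicle site with the companion layer genes Krt75, Fgf18 and Timp3. In HFSCs edgeR called 0 of these 3, with Krt75 at 3.47 and 10.3 CPM in WT and 13.5 and 19.7 CPM in Msx2-KO, and Timp3 at 26.0 and 25.1 against 83.2 and 50.3. Fgf18, an inhibitor of hair growth made in the inner bulge, was at 9.21 and 13.9 CPM in WT and 0 and 7.85 CPM in Msx2-KO. The summed list was thus at 38.7 and 49.3 CPM in WT and 96.7 and 77.9 CPM in Msx2-KO, against the order of Krt6a. In EpdSCs only Timp3 had values, and its groups overlapped. A difference in a bulk sample can come from fewer cells of a type or from less RNA per cell, which cannot be told apart here.

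Markers of other cells moved with the keratins in HFSCs. All 9 measured sebaceous gland genes had both Msx2-KO libraries above WT, with a median log2 difference of 3.80 and 0 called by edgeR, beside 17.5% of all HFSC genes above WT. Their summed level was 96.3 and 112 CPM in WT and 1657 and 1282 CPM in Msx2-KO. Scd1, a fatty acid desaturase and the most abundant, was at 17.6 and 19.7 CPM in WT and 976 and 760 CPM in Msx2-KO. Acsbg1, Fasn and Soat1 came next. Elovl3 was at 0 in WT replicate 2 alone, so it passed the filter on low counts only with its Msx2-KO libraries. Bulge genes went the other way. Of 11 tested, 9 were below WT in both Msx2-KO libraries, beside 33.5% of all HFSC genes, and 1 above, the median was -0.65, and the sum was 10009 and 9609 CPM in WT and 4982 and 4776 CPM in Msx2-KO. Col17a1, Postn, Nfib and Sox9 led that list. The interfollicular basal list, which shares Itga6 and Col17a1 with it, was at 4962 and 4964 CPM in WT and 2747 and 2673 CPM in Msx2-KO, with Col17a1, Trp63, Itgb4 and Itga6 highest, 4 of 5 tested genes below WT, and a median of -0.80.

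Dermal and other non-epithelial markers were also measured in HFSCs. Fibroblast genes summed to 61.1 and 68.2 CPM in WT and 35.1 and 30.6 CPM in Msx2-KO, led by Col1a2, Col1a1, Vim and Fbn1. Immune genes were at 11.3 and 5.17 CPM in WT and 20.2 and 10.4 CPM in Msx2-KO, led by Cd74, and the pan-leukocyte gene Ptprc was at 0 in both Msx2-KO libraries. Melanocyte genes were at 197 and 219.1 CPM in WT and 118 and 53.1 CPM in Msx2-KO. Mitf made up most of the WT sums at 178 and 186 CPM, Dct was the highest at 48.8 CPM in Msx2-KO replicate 1, and the pigment genes Tyrp1 and Pmel were at 0 in both Msx2-KO libraries. Sox10 overlapped, at 1.60 and 0.323 CPM in WT and 26.4 and 0.425 CPM in Msx2-KO. Endothelial and mural genes summed to no more than 10.4 CPM in any library, with Pecam1 highest. edgeR called 0 genes of these 4 lists. The part of any of these cells in the keratin differences was not tested.

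The same lists in EpdSCs were dominated by epithelial genes. Sebaceous genes summed to 11363 and 9831 normalized counts in WT against 34656 and 14596 in Msx2-KO, with Scd1, Acsbg1, Fasn and Dgat2 highest on the mean of the libraries, with 2 of 7 tested genes above WT, 2 below, 0 called and a median of 0.14. All EpdSC genes gave 27.8% above, 44.5% below, 1.57% called higher, 7.78% called lower and a median of -0.64, which also stand beside the lists that follow. Bulge genes summed to 63129 and 78331 in WT against 112594 and 123395 in Msx2-KO, mostly Col17a1 and Itga6, then Nfib and Postn. Postn, the matrix protein periostin, which the study named among the genes lower in HFSCs, was the 1 called gene of 10 and rose from 457 and 488 to 10771 and 8326 (limma adjusted p = 0.0281, log2 difference 4.32), a call lost without either WT library. The interfollicular basal list summed to 79053 and 97568 in WT against 151291 and 129407 in Msx2-KO, led by Col17a1, Itga6, Trp63 and Itgb4, with 3 genes above WT, 1 below, a median of 1.18 and 0 of 6 called. The sum hides unlike genes, since Itgb4 was at 7432 and 11067 in WT against 183 and 1148 in Msx2-KO (log2 difference -4.30), and Col17a1 and Trp63 overlapped. Immune genes stood at 802 and 66.4 in WT against 25.5 and 9.44 in Msx2-KO, with Cd74, Cd3g, H2-Aa and Ptprc highest, and Vim, the fibroblast gene with values, was at 237 and 19.0 in WT and 0 in both Msx2-KO libraries. Mitf of the melanocyte list overlapped, as did Acta2 of the endothelial and mural list, whose other gene Pecam1 was at 8.67 and 4.74 in WT against 24.2 and 18.2 in Msx2-KO. limma called 0 of the immune, fibroblast, melanocyte and endothelial genes, and their part in the keratin values was not tested.

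Across the 8 libraries, the genes whose pattern was most like a given keratin were found as those with the smallest root mean square difference of log2 values, each gene centred within its table, among 4974 other genes with a mean of at least 20 in both tables. Krt10 was closest to Krt1, at 0.33 log2 units. Next came the apolipoprotein gene Apoc1 at 0.54, then Rgcc at 0.61, Gm4076 at 0.65 and Psapl1 at 0.73. In WT HFSCs Apoc1 was at 3.07 and 1.94 CPM, Rgcc at 0.267 and 0.970, Gm4076 at 0.402 and 0, and Psapl1 at 2.67 and 2.91. All of these reached that mean in HFSCs through the Msx2-KO libraries. The filter thus let them in because they were high where Krt10 was high, and their distances are not exact. Krt1, Krt77 and Krt79 also had WT HFSC means under 20. Krt77 ranked 44 by this measure and Krt79 ranked 80. Krt79 was closest to Gm5148, Gm9493, Gm13680, Zfp750 and Apoc1, at 0.54 to 0.87, with Krt77 at rank 10 and Krt1 at rank 21. The same limit holds for each of these neighbours. In WT HFSCs Gm5148 was at 2.46 and 2.30 CPM, Gm9493 at 0.446 and 0.865, Gm13680 at 1.43 and 1.27, and Zfp750 at 3.87 and 0.647. Krt2, Krt6b and Krt16 were under that mean in 1 table or both and were not compared. For Krt17 the nearest genes were Eif3i at 0.33 and Rpl39 at 0.35, and Krt10, its nearest member, had rank 1479. Krt79, grouped with Krt17 by name, had rank 4229, and Krt6a had rank 4531. Krt6a was most like Hsp90aa1 at 0.52, then Socs4, Bfar, Acbd3 and Fzd5, and Krt77, its nearest member, had rank 4483. These distances describe 8 libraries that fall into 4 groups and share their depth and scaling.

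All 9 genes lie on the minus strand in the clusters of keratin genes of GRCm38, which the authors used. The type II members span 264.3 kb of chromosome 15 (chr15:101676023-101940324), among 12 coding keratin genes, and the type I members span 875.8 kb of chromosome 11 (chr11:99385254-100261029), among 20. Krt1 (chr15:101845426-101850794) and Krt77 (chr15:101858731-101869705) are neighbours 7936 bases apart with 0 coding genes between them, and Krt2 is the next gene beyond Krt1. They were alike in HFSCs but not in EpdSCs, where Krt77 overlapped between the genotypes. Krt16 (chr11:100246091-100248902) and Krt17 (chr11:100256217-100261029) are likewise adjacent, 7314 bases apart, and differed in opposite directions in HFSCs. Krt79 (chr15:101929332-101940324) and Krt10 (chr11:99385254-99389364) sit at outer ends of these spans.

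**Figure D3:**
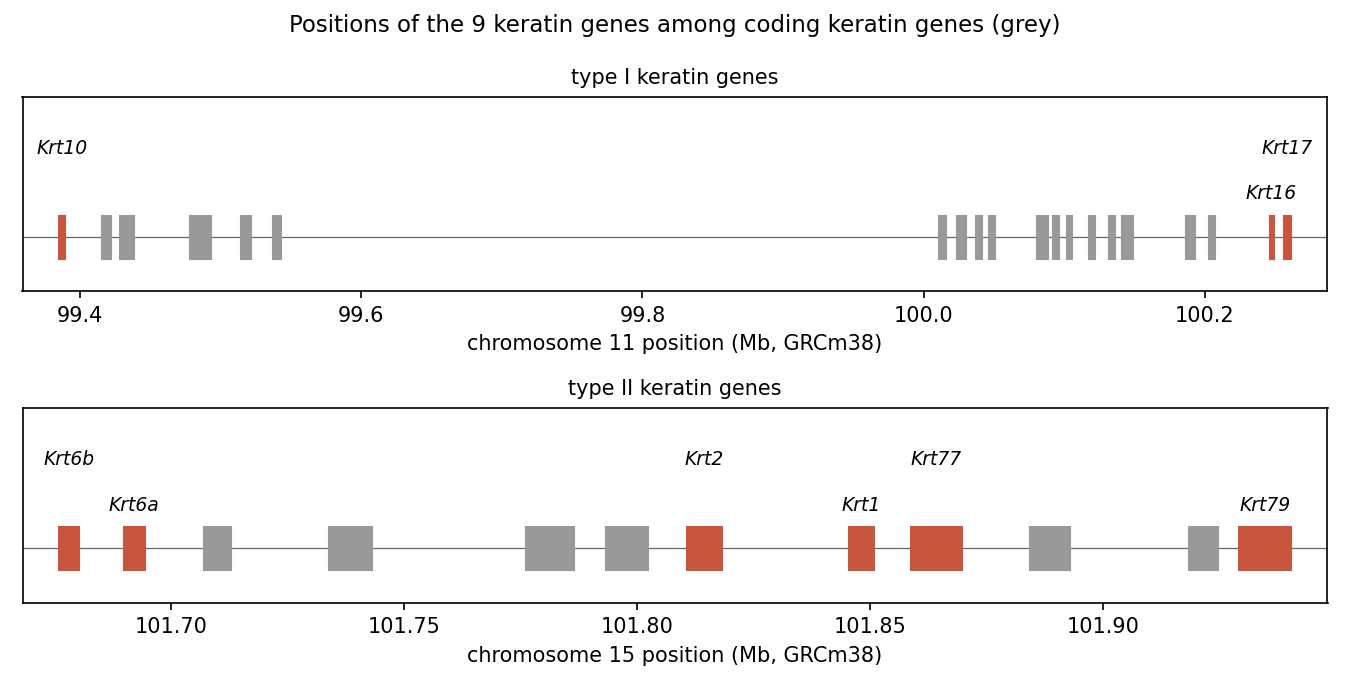
Map of the keratin gene clusters of chromosomes 11 and 15 between the outermost of the 9 genes, with position in Mb of GRCm38 on the horizontal axis; red boxes are the 9 genes and grey boxes other coding keratin genes. Krt1 and Krt77 are neighbours on chromosome 15, and Krt16 and Krt17 on chromosome 11.

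Sequence shared between copies limits some of these values. Of all 50-base windows of the Krt6a transcript, 43.6% also occur in Krt6b, and 44.5% of Krt6b windows occur in Krt6a, so reads may have been split between the pair and their separate counts are uncertain. Summed into 1 gene, Krt6a and Krt6b had a log2 difference of -2.26 (SE 0.68) in HFSCs and 0.68 (SE 1.17) in EpdSCs. Krt16 shares 37.6% of its windows with transcripts of 3 other genes, 25.2% with Gm11597, and its counts are uncertain too. For Krt17 the share was 3.99% and for Krt1, Krt2, Krt10, Krt77 and Krt79 it was 0%. Antisense genes overlap Krt10 (Gm11940) and Krt6a (Gm49428). Libraries were made with a stranded kit, but the sources used here do not say if reads were counted by strand. Gm11940 reached no more than 70.1 normalized counts in EpdSCs, where Krt10 was at 16336 or more. Gm49428 was at 1.54 and 17.5 CPM in WT HFSCs and 0 and 4.56 CPM in HFSCs labelled Msx2-KO, beside Krt6a at 126, 330, 76.5 and 39.7 CPM, and its part in the Krt6a values was not tested.

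Promoters of 4 of the 9 genes, Krt2, Krt10, Krt77 and Krt79, could be matched in RefSeq (GRCm38.p6). Krt10, Krt77 and Krt79 were all higher in HFSCs labelled Msx2-KO, and the 150 bases before their starts are shown so that these starts can be compared. Both strands of the 250 bases before the start were searched for the exact letters TATAAA, a form of the TATA box. The AP-1 motif TGANTCA and the homeodomain core TAATTG, which Msx proteins can bind, were searched in the same way. These letters occur in 13.0%, 6.87% and 7.34% of 27025 mouse promoters. Capitals mark the 1 match, a TATAAA of Krt10 beginning 26 bases before its start, and none of the motifs overlapped. Other spellings were not counted, such as the letters tatata near the starts of Krt77 and Krt2. The search therefore does not say that these promoters lack a TATA box. The AP-1 and homeodomain letters were found in 0 of the 4 windows, which says nothing of the factors.
Krt10 (chr11:99389365-99389514, minus strand): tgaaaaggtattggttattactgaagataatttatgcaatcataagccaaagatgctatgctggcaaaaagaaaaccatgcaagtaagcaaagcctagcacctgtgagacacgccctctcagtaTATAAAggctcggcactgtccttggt
Krt77 (chr15:101869706-101869855, minus strand): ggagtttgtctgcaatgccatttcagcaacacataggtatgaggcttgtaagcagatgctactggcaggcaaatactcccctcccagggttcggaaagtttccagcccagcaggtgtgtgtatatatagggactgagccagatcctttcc
Krt79 (chr15:101940325-101940474, minus strand): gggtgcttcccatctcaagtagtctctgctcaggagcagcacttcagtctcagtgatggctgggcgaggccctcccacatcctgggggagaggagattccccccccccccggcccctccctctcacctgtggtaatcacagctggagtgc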

How the data were processed

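Per the labels, the authors aligned reads to GRCm38 (mm10) with STAR 2.7.3a in Partek. The HFSC values deposited by the authors are estimated counts of each gene, without normalization. For EpdSCs the deposited signal is estimated counts that the authors divided by 1 factor per library. Median-of-ratios factors, the method of DESeq2, came to 1.03 in each of the 4 libraries when computed on the deposited values, so the deposited scaling is the same between libraries as that method gives. The filter on low genes is not given in the sources used here. The libraries were stranded, but the sources do not say if reads were counted by strand. The authors' result tables hold fold changes, p-values and pooled means of their own genotype comparison and were not used. Value columns without a library numbered 0.

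HFSC counts were rounded, filtered with filterByExpr, given TMM factors and compared by the quasi-likelihood test of edgeR 4.0.16 (glmQLFit, glmQLFTest) in R 4.3.3. DESeq2 1.42.0 and limma-trend were run beside it. The EpdSC test was that of limma 3.58.1, on log2 of each value plus 1. Calls needed a p under 0.05 after Benjamini-Hochberg adjustment over all genes tested, and a fold change over 2. An exact permutation test of 2 against 2 libraries cannot go below p = 0.333, so ratios were not tested. The study counts individual mice as biological replicates of its in vivo experiments in general. Separate mice are not stated for these libraries, at 2 per group, so p-values measure only the spread between these samples. Libraries with the same replicate number were not alike in their residual differences across genes (correlation -0.044 in HFSCs and -0.023 in EpdSCs), so no block was used.

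The members and the gene lists were chosen with earlier results of these data known. Genes named are the 9 members, the 4 most abundant and any called gene of each list, the 5 highest other keratins of each table, and the 5 nearest genes by likeness, of which 2 are given for Krt17. Dsg1a and Lor in HFSCs, the sort markers Cd34 and Ly6a, and genes named for values of 0 were added after their values were seen. Lengths per kb are those of coding transcripts in GENCODE M21. Counting intervals and floors (3 counts) cover counting error only.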

Additional observations from a re-analysis of the deposited data

Results flagged for a closer look

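For 3 of the keratins the genotype difference ran in opposite directions in HFSCs and EpdSCs. Both libraries labelled Msx2-KO were above both WT libraries in HFSCs and below both WT libraries in EpdSCs. Over all genes tested in each cell type, 17.5% were above in this way in HFSCs and 44.5% below in EpdSCs. The share of all genes that did both was not counted. The log2 difference of Krt1 was 5.36 in HFSCs and -1.67 in EpdSCs. For Krt10 it was 5.23 in HFSCs and -2.55 in EpdSCs. For Krt17 it was 1.79 in HFSCs and -3.84 in EpdSCs. Whether these differences differ between the cell types was not tested.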

How the results depend on the processing

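Where edgeR called 0 HFSC genes, DESeq2 called 323 genes higher and 351 lower (5 and 2 of the keratins), limma-trend 158 and 1249 (3 and 0), and library totals in place of TMM 16 and 35 (1 and 1). Asking for at least 10 counts in every library gave 2 higher and 0 lower, with no keratin. A block for the replicate number, which does not pair the libraries, gave 145 and 86 (5 and 1). Leaving out 1 HFSC library at a time gave 90 to 2711 genes higher and 35 to 6561 lower, with 4 to 5 keratins higher and 0 to 2 lower. In EpdSCs the same gave 0 to 3745 genes higher and 0 to 6631 lower, with 0 to 3 keratins lower and 0 higher. A pseudocount of 10 called 619 genes higher and limma with a trend 684. A pseudocount of 0.1 called 162 higher. In EpdSCs the log2 difference of 4 keratins changed sign. Over the left-out libraries it ran from -1.38 to 0.68 for Krt16 (0.68 without WT replicate 1, 0.33 without Msx2-KO replicate 2), from -0.45 to 2.03 for Krt6a (-0.45 without Msx2-KO replicate 1, -0.06 without WT replicate 2), from -1.69 to 0.77 for Krt77 and from -1.60 to 0.82 for Krt79 (both highest without Msx2-KO replicate 2). The cause was not tested. A lone library left in a group is assumed to vary like the other group. No keratin changed direction under RLE factors or library totals in HFSCs, equal totals in EpdSCs, or with mitochondrial and ribosomal RNA genes left out. Median-of-ratios scaling of EpdSCs, chosen after seeing the data, repeats the deposited scaling and is no check on it. Equal library totals moved the median of all EpdSC genes from -0.64 to -0.88, and to -1.14 with the RNA genes also left out, where Krt1 was at -2.21, Krt10 at -3.08 and Krt6a at 0.26, against -1.67, -2.55 and 0.79. With 2 libraries per group, and few counts of Krt2 and Krt16 in HFSCs and of Krt6b in EpdSCs, small differences may have been missed. The smallest difference that could be detected was not measured.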
